A study of Mus musculus with 6 samples.

Results

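Matrix metalloproteinases are zinc enzymes that cut the proteins of the extracellular matrix, and the 10 genes described here are 7 of them (Mmp2, Mmp3, Mmp9, Mmp11, Mmp12, Mmp13 and Mmp14), the related membrane protease Adam12, and the inhibitors Timp1 and Timp3. They were taken by symbol from the 27179 genes of the deposited count tables, all 10 were found, and all 10 passed the filter on low counts, as did 17377 genes in all. RNA from the skin of female BALB/c mice aged 6 to 8 weeks was sequenced in 4 conditions. Skin exposed to bleomycin and given EHP-101, an oral formulation of a cannabidiol aminoquinone, had 1 library (replicate 3). Skin exposed to bleomycin and given ajulemic acid (AJA), a synthetic cannabinoid, had 3 libraries. Bleomycin alone (BLM), a DNA-damaging drug used to model the skin fibrosis of scleroderma, had 1 library, and so did control skin. The labels give no dose, route or duration and do not say whether the libraries came from separate animals. P-values therefore speak only for the variation among these libraries, part or all of which may be technical. Both treatments were set against the same bleomycin library, which was also the one set against control, so every contrast between bleomycin and another group below rests on that 1 library. One of the deposited tables also holds 6 columns named as replicates 1 and 2 of bleomycin with EHP-101, bleomycin and control. The series description assigns them to a separate deposit, they match none of the 6 samples described here, and they were not analysed here. The groups of 1 library are thus a limit of what was analysed, not of that table.

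The enzymes are made as inactive precursors, mostly by fibroblasts, macrophages, neutrophils and activated keratinocytes, and their genes are mainly controlled at transcription. Tissue inhibitors of metalloproteinases (Timps) bind the active site of the enzymes one to one. In skin these proteins are known for wound repair, collagen turnover and fibrosis, where more inhibitor and less protease favours the build-up of matrix.

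Mmp13, Mmp12 and Mmp3 lie within 1 stretch of chromosome 9 in mm10, with Mmp13 (gene 17386) at 7272514 to 7283333, Mmp12 (gene 17381) at 7347374 to 7360461 and Mmp3 (gene 17392) at 7445822 to 7455975, all on the plus strand and each with 10 exons. Timp1 (gene 21857) lies on chromosome X at 20870166 to 20874737. Their promoter windows, from 250 bases before to 50 after the annotated start, are printed 5′ to 3′ because the 3 proteases of this stretch were highest in the same library, while Timp1 was high in every bleomycin-exposed library. That library, bleomycin alone, was also the highest for Mmp2, Mmp9, Mmp11, Mmp14 and Adam12, so this does not set the 3 apart. The sequences are from RefSeq on GRCm38.p6, plus strand, at chr9:7272264-7272563 for Mmp13, chr9:7347124-7347423 for Mmp12, chr9:7445572-7445871 for Mmp3 and chrX:20869916-20870215 for Timp1. Capitals mark matches to TGANTCA, the motif of the transcription factor AP-1.
Mmp13: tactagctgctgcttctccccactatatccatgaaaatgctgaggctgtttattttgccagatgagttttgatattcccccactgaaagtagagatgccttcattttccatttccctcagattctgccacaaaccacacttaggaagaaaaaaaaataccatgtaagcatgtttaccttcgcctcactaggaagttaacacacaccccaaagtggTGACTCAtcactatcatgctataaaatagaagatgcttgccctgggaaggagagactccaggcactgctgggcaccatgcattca
Mmp12: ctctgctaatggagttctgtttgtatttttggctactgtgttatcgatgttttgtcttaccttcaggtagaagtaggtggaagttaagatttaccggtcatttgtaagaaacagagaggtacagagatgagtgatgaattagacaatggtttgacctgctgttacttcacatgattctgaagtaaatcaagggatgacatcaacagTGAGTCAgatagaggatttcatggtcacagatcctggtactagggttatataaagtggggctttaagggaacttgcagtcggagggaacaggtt
Mmp3: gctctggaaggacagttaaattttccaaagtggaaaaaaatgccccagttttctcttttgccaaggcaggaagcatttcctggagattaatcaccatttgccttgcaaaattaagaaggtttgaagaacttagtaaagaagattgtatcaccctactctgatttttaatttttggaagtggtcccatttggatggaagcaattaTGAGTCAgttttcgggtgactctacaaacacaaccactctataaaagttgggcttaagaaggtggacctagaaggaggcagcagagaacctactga
Timp1: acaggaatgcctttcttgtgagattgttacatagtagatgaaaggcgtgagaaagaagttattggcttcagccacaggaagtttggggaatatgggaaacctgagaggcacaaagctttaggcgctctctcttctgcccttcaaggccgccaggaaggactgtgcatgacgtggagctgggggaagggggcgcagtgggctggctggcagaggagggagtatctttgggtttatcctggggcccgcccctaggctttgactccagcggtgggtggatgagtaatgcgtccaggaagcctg

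The table of promoters held windows for 7 of the 10 genes, 8 windows in all, since Mmp12 had a second annotated start 2977 bases upstream of the start used in the count tables. TGANTCA, read on both strands, began 35 bases before the start of Mmp13, 44 before that of Mmp12 and 46 before that of Mmp3. The windows of Mmp11, Mmp14, Timp1, Timp3 and the upstream start of Mmp12 did not hold these letters. Mmp11 and Mmp14 were also highest in the bleomycin library. Across 32851 windows of 300 bases, 7.81% held TGANTCA. The same 3 windows also held TATAAA, the letters of the TATA box, which 13.6% of all windows held on either strand. These letters began 16 bases before the annotated start of Mmp13 and 7 before that of Mmp3. In Mmp12 they began at base 5 after the annotated start. Both motifs together were found in 1.54% of all windows. Matches to AGGAAG, the ETS motif, were found in 6 of the 8 windows and in 35.4% of all windows, and matches to TGTGGT, the RUNX motif, in those of Mmp13 and Mmp14 and in 16.8% of all. No match overlapped a match to another motif. A match describes letters only and is not a measured binding site. Only exact letters were sought, so the lack of a match does not show that a factor cannot bind there.

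The libraries held between 14291592 and 19837682 counts, of which mitochondrial ribosomal RNA took 17.3 to 26.5%. Levels are in CPM, the usual unit of counts scaled to library size, here by the TMM method of edgeR, and intervals of a single library are exact 95% Poisson intervals, which cover counting error only. Fold changes are log2 values from 1 edgeR fit of all 6 libraries. The spread in that fit came from the 3 AJA libraries, with each group of 1 library taken to vary as they do. None of the differences in these 10 genes passed edgeR's quasi-likelihood test at an adjusted p of 0.05 over all genes, in any of the 6 comparisons. Over all genes it called 0 in each comparison but AJA against control, where it called 6, or 0.0345%. Differences are therefore given as values, with the unadjusted p and the result of DESeq2, the alternative count test.

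The bleomycin library had the highest level of all 6 libraries for 8 of the 10 genes, the 7 metalloproteinases and Adam12. Over all genes tested, the bleomycin library was the highest for 17%. The 10 genes were chosen with earlier results of these data known, so the shares here and below are a description only. Against control, 9 of the 10 genes had a positive log2 fold change, where 49.5% of all genes did, with a median of 0.82 against -0.01 over all genes. A log2 fold change of at least 1 was reached by 5 of them (Mmp9, Mmp11, Mmp12, Mmp13 and Timp1), and by 7.75% of all genes. At an unadjusted p under 0.05, edgeR had 6 of the 10 higher and 0 lower, where 4.7% of all genes were higher and 2.1% lower. DESeq2 called Timp1, Mmp12 and Mmp13 higher at an adjusted p under 0.05, where it called 0.817% of genes higher, and limma called none of the 10.

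The inhibitor Timp1, a secreted protein induced by cytokines and growth factors, was at 16.7 CPM in the bleomycin library (interval 14.7 to 18.8) and 2.82 CPM in control (2.04 to 3.80). Its log2 fold change was 2.56 (SE 0.45), with an unadjusted p of 0.00247 and an adjusted p of 0.434 by edgeR, and an adjusted p of 0.00267 by DESeq2. Mmp13, collagenase 3, which cuts fibrillar collagen, was at 10.8 CPM (9.21 to 12.53) in bleomycin and 0.722 CPM (0.361 to 1.29) in control, from 168 and 11 counts. Its log2 fold change of 3.88 (SE 0.84) had an adjusted p of 0.545 by edgeR and 0.0379 by DESeq2. Mmp12, the elastase of macrophages, was at 35.3 CPM (32.4 to 38.3) in bleomycin and 9.33 CPM (7.85 to 10.99) in control. Its log2 fold change of 1.92 (SE 0.36) had an adjusted p of 0.451 by edgeR and 0.0234 by DESeq2. The 2 libraries' counting intervals did not meet for these 3 genes, nor for any other of the genes described here but Timp3. This does not set the 3 apart, since the intervals cover counting error only.

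Mmp9, gelatinase B, which neutrophils store and macrophages and keratinocytes secrete (gene 17395, chromosome 2, 164948251 to 164955846), was at 16.6 CPM in bleomycin and 3.48 CPM in control. This log2 fold change of 2.25 (SE 0.74) had an adjusted p of 0.715 by edgeR and 0.288 by DESeq2. Mmp11, stromelysin 3 (gene 17385, chromosome 10, 75923224 to 75932463), a stromal protease that is activated inside the cell by furin, was at 23.2 CPM in bleomycin and 11.4 CPM in control (log2 fold change 1.02, SE 0.35). Differences were smaller for the other 5 genes. Mmp14, the membrane-bound collagenase that activates the Mmp2 precursor (gene 17387, chromosome 14, 54431604 to 54441258), was at 122 CPM in bleomycin and 86.4 CPM in control (log2 fold change 0.50, SE 0.18). Mmp2, gelatinase A (gene 17390, chromosome 8, 92827328 to 92853420), was at 158 CPM in bleomycin and 128.5 CPM in control (log2 fold change 0.30, SE 0.47). Mmp3, stromelysin 1, which cuts proteoglycans and activates other proteases of the family, was at 42.0 CPM in bleomycin and 27.1 CPM in control, with a log2 fold change of 0.63 whose SE of 0.82 exceeded it. Adam12, a membrane protease of activated mesenchymal cells (gene 11489, chromosome 7, 133883199 to 134225097), was at 35.9 CPM in bleomycin and 27.1 CPM in control (log2 fold change 0.41, SE 0.36). Timp3, the inhibitor that binds to the matrix (gene 21859, chromosome 10, 86300412 to 86349505), was at 334 CPM in bleomycin and 341 CPM in control (log2 fold change -0.03, SE 0.22).

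The calls in this comparison depended on the AJA libraries that set the spread. Without AJA replicate 3 edgeR called Timp1 and Mmp12, whose log2 fold changes were 2.56 and 1.92 as before. It then also called many other genes, where it called none with all 3 AJA libraries.

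**Figure D1:**
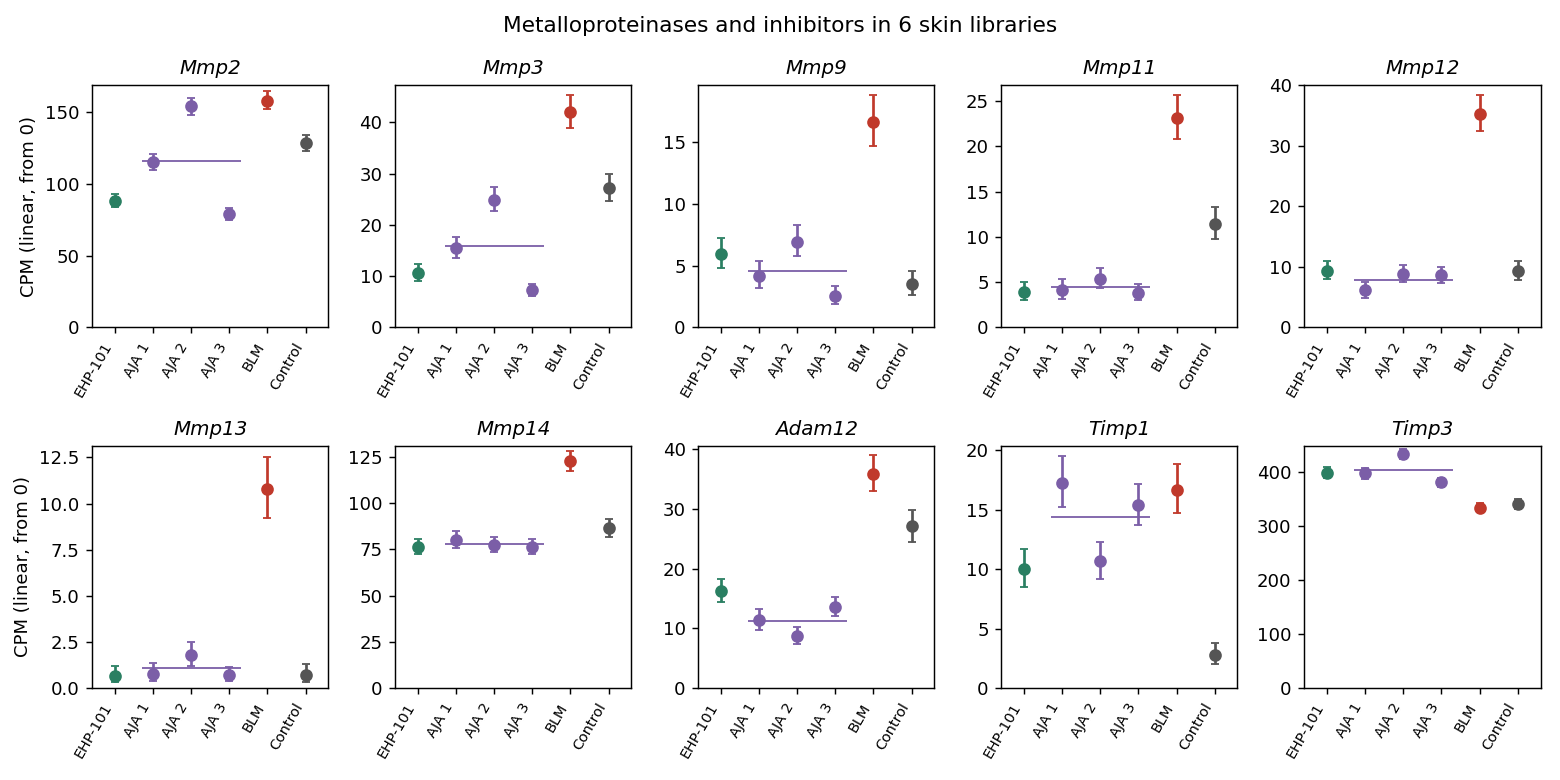
Level of each gene in CPM (linear axes from 0) in the libraries of bleomycin with EHP-101, bleomycin with ajulemic acid (AJA replicates 1 to 3, with their mean as a line), bleomycin alone (BLM) and control. Bars span the exact 95% Poisson interval of each count. The bleomycin library is the highest for the 7 metalloproteinases and Adam12, whereas Timp1 is lowest in control, at 2.82 CPM, and 10 CPM or more in the other 5 libraries.

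In the EHP-101 library 9 of the 10 genes had a negative log2 fold change against bleomycin alone, where 50% of all genes did, and the median was -1.32 against -0.00 over all genes. A log2 fold change of -1 or lower was reached by 6 of them, and by 4.02% of all genes. At an unadjusted p under 0.05, edgeR had 5 lower (Mmp11, Mmp12, Mmp13, Mmp14 and Adam12) and 0 higher, where 1.32% of all genes were lower and 0.575% higher. DESeq2 called 1 of the 10, Mmp11, at an adjusted p under 0.05, where it called 0.0347% of genes lower. With limma none was called.

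Mmp11 was at 3.96 CPM (3.06 to 5.05) in the EHP-101 library and 23.2 CPM (20.8 to 25.7) in bleomycin alone. The log2 fold change of -2.54 (SE 0.37) had an unadjusted p of 0.00119 by edgeR and an adjusted p of 0.0281 by DESeq2. Over 688 bases the exons of Mmp11 overlap another annotated gene on the opposite strand, which had 0 counts in each of the 6 libraries. Mmp13 was at 0.671 CPM (0.335 to 1.2) in the EHP-101 library and 10.8 CPM in bleomycin (log2 fold change -3.99, SE 0.84). Mmp12 was at 9.33 CPM (7.91 to 10.9) in the EHP-101 library and 35.3 CPM in bleomycin (log2 fold change -1.92, SE 0.36). The control level of Mmp12 was also 9.33 CPM.

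Mmp3 was at 10.7 CPM in the EHP-101 library and 42.0 CPM in bleomycin (log2 fold change -1.98, SE 0.85), and Mmp9 was at 5.92 CPM with EHP-101 and 16.6 CPM in bleomycin (log2 fold change -1.49, SE 0.71). Adam12 was at 16.2 CPM with EHP-101 and 35.9 CPM in bleomycin (log2 fold change -1.14, SE 0.37). Mmp2 was at 88.2 CPM with EHP-101 and 158 CPM in bleomycin (log2 fold change -0.84, SE 0.47), and Mmp14 at 76.4 CPM with EHP-101 and 122 CPM in bleomycin (log2 fold change -0.68, SE 0.18). Of the inhibitors, Timp1 was at 10 CPM in the EHP-101 library (8.53 to 11.7) and 16.7 CPM in bleomycin (log2 fold change -0.74, SE 0.41), and Timp3 at 399 CPM with EHP-101 and 334 CPM in bleomycin (log2 fold change 0.26, SE 0.22). All 10 genes had an adjusted p of 1.0 by edgeR in this contrast.

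In the AJA libraries 9 of the 10 genes had a negative log2 fold change against bleomycin alone, where 47.2% of all genes did, and the median was -1.54 against 0.02 over all genes. A log2 fold change of -1 or lower was reached by the 6 genes Mmp3, Mmp9, Mmp11, Mmp12, Mmp13 and Adam12, and by 3.94% of all genes. All 3 AJA libraries lay below the bleomycin library for 8 of the 10 genes, where this held for 24.6% of all genes. They lay above it for Timp3, as for 22.9% of all genes. At an unadjusted p under 0.05, edgeR had 6 lower (Mmp9, Mmp11, Mmp12, Mmp13, Mmp14 and Adam12) and 0 higher, where 3.21% of all genes were lower and 0.622% higher. DESeq2 called Mmp11, Mmp12, Mmp13 and Adam12 lower, where it called 0.501% of genes lower, and limma called none.

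Mmp11 was at 4.16, 5.39 and 3.84 CPM in AJA replicates 1 to 3, and at 23.2 CPM in bleomycin. The AJA mean was 4.46 ± 0.817 CPM (SD, n = 3), a log2 fold change of -2.37 (SE 0.26), with an adjusted p from the model across all genes of 0.153 by edgeR and 7.54e-05 by DESeq2. Mmp12 was at 6.13, 8.77 and 8.57 CPM in the AJA libraries and 35.3 CPM in bleomycin. Its AJA mean of 7.83 ± 1.47 CPM gave a log2 fold change of -2.17 (SE 0.26), with an adjusted p of 0.172 by edgeR and 7.39e-05 by DESeq2. Every AJA library was far below the bleomycin library in both genes. Adam12 was at 11.4, 8.65 and 13.6 CPM with AJA and 35.9 CPM in bleomycin (log2 fold change -1.68, SE 0.28), with an adjusted p of 0.349 by edgeR and 0.00703 by DESeq2. Mmp13 was at 0.750, 1.78 and 0.698 CPM with AJA and 10.8 CPM in bleomycin (log2 fold change -3.32, SE 0.55), with an adjusted p of 0.349 by edgeR and 0.0169 by DESeq2.

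The gelatinases and Mmp3 varied widely among the AJA libraries. Mmp9 was at 4.16, 6.93 and 2.54 CPM with AJA and 16.6 CPM in bleomycin (log2 fold change -1.87, SE 0.53). Mmp3 was at 15.5, 24.9 and 7.28 CPM with AJA and 42.0 CPM in bleomycin (log2 fold change -1.40, SE 0.63). Mmp2 was at 115, 154 and 79.0 CPM with AJA and 158 CPM in bleomycin, so that AJA replicate 2 came within counting error of it, and the log2 fold change was -0.45 (SE 0.38). The coefficient of variation among the AJA libraries was 55.5% for Mmp3, 48.9% for Mmp9 and 32.3% for Mmp2, and 56.6% for Mmp13 with its few counts, whereas it was 2.31% for Mmp14. Mmp14 was at 79.9, 77.5 and 76.4 CPM with AJA and 122 CPM in bleomycin (log2 fold change -0.65, SE 0.14).

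Timp1 was the only one of the 10 whose AJA libraries lay on both sides of bleomycin, at 17.2, 10.7 and 15.3 CPM with AJA against 16.7 CPM in bleomycin (log2 fold change -0.21, SE 0.33). Timp3 was at 397, 433 and 380.5 CPM with AJA and 334 CPM in bleomycin (log2 fold change 0.27, SE 0.18). As in the first comparison, calls by edgeR depended on the setting. With all 3 AJA libraries but no filter on low counts it called Mmp11 (adjusted p = 0.0466). Without replicate 3 edgeR called Mmp11, Mmp12 and Adam12, and without replicate 2 it called Mmp11 and Mmp13. Each of these settings also called many genes outside the 10, where the main fit called none.

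**Figure D2:**
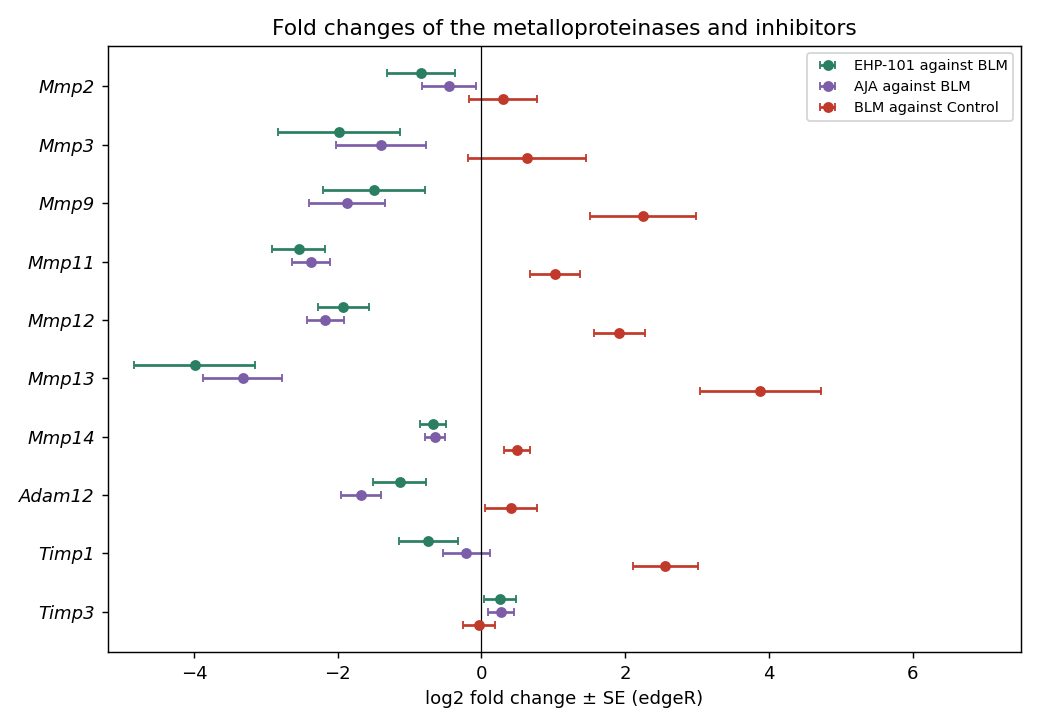
Log2 fold change of each gene with its SE from edgeR, for bleomycin with EHP-101 against bleomycin alone (BLM), bleomycin with ajulemic acid (AJA) against bleomycin alone, and bleomycin alone against control. The 7 metalloproteinases and Adam12 lie left of 0 for both treatments and right of 0 for bleomycin. Timp1 lies at 2.56 for bleomycin against control and at -0.74 and -0.21 for the treatments, and all 3 contrasts share the same bleomycin library.

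Against control skin, Timp1 was the gene of the 10 with the highest log2 fold change under both treatments, with 10 CPM in the EHP-101 library and 14.4 ± 3.39 CPM with AJA (SD, n = 3), against 2.82 CPM in control. Its log2 fold change was 1.82 (SE 0.44) with EHP-101, with an adjusted p of 0.737 by edgeR, and 2.35 (SE 0.40) with AJA, with an adjusted p of 0.173 by edgeR and 0.000291 by DESeq2. It was the 1 gene of the 10 that DESeq2 called higher with AJA, where DESeq2 called 0.51% of genes higher, and edgeR called it without AJA replicate 2 (adjusted p = 0.0302) and without replicate 3 (adjusted p = 0.0314). Mmp3, Mmp11, Mmp14 and Adam12 lay below control in each treated library. Mmp3 was at 10.7 CPM with EHP-101 and 15.9 ± 8.83 CPM with AJA, against 27.1 CPM in control. Its log2 fold changes were -1.34 (SE 0.84) with EHP-101 and -0.77 (SE 0.65) with AJA. Mmp14 was at 76.4 CPM with EHP-101 and 78.0 ± 1.80 CPM with AJA, against 86.4 CPM in control. Its log2 fold changes were -0.18 (SE 0.18) and -0.15 (SE 0.15). Mmp11 was at 3.96 CPM with EHP-101 and 4.46 ± 0.817 CPM with AJA, against 11.4 CPM in control, with log2 fold changes of -1.53 (SE 0.37) and -1.36 (SE 0.28). Adam12 was at 16.2 CPM with EHP-101 and 11.2 ± 2.46 CPM with AJA, against 27.1 CPM in control, with log2 fold changes of -0.74 (SE 0.36) and -1.27 (SE 0.28). Of the settings run with edgeR, leaving out replicate 3 was the one under which Adam12 was called lower with AJA. Without replicate 2 or replicate 3, edgeR also called many more genes against control than with all 3 AJA libraries.

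All 3 AJA libraries lay below control for 5 of the 10 genes (Mmp3, Mmp11, Mmp12, Mmp14 and Adam12), as for 22.2% of all genes, and above it for Timp1 and Timp3, as for 26.9% of all genes. At an unadjusted p under 0.05, edgeR had Timp1 higher and Mmp11 and Adam12 lower with AJA, where 3.02% of all genes were higher and 4.1% lower. With EHP-101 it had Timp1 higher and Mmp11 lower, where 2.92% of all genes were higher and 1.71% lower. DESeq2 called none of the 10 with EHP-101, where it called 0.537% of genes higher and 0.162% lower. With AJA it called none lower, where it called 0.944% of genes lower. Mmp13 was at 0.671 CPM with EHP-101 and 1.08 ± 0.608 CPM with AJA, against 0.722 CPM in control. In that gene AJA replicate 2, at 1.78 CPM, was 2.46 times control. Its counting interval of 1.21 to 2.52 CPM met that of control, 0.361 to 1.29 CPM. The other treated libraries lay within the control interval.

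Between the treatments, the EHP-101 library lay above the range of the AJA libraries for Mmp12 and Adam12, below it for Mmp13 and Timp1, and within it for the others. How often this held over all genes was not counted, so these places are a description only. None of the 10 differed at an unadjusted p under 0.05 by edgeR, where 1.97% of all genes were higher and 0.397% lower with EHP-101, and DESeq2 and limma called none of them, where DESeq2 called 0.368% of genes higher and 0 lower. The largest differences by edgeR were a log2 fold change of -0.67 (SE 0.74) for Mmp13, -0.57 (SE 0.70) for Mmp3, -0.53 (SE 0.34) for Timp1 and 0.53 (SE 0.29) for Adam12. With 1 EHP-101 library these values do not show that the treatments act alike.

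Set per kilobase of exon so that genes can be compared, Timp3 was the most abundant transcript of the 10 in each library, at 85.2 CPM per kb with EHP-101, 84.8, 92.4 and 81.3 with AJA, 71.3 in bleomycin and 72.9 in control. Mmp2 and Mmp14 followed. Mmp2 was at 29.0 CPM per kb with EHP-101, 37.8, 50.7 and 26.0 with AJA, 52.0 in bleomycin and 42.3 in control. Mmp14 was at 29.4 CPM per kb with EHP-101, 30.8, 29.9 and 29.4 with AJA, 47.1 in bleomycin and 33.3 in control, so the order of these 2 genes changed among the AJA libraries. Mmp13 was the lowest of the 10 in all 6 libraries, at 4.03 CPM per kb in bleomycin and 0.251 to 0.664 in the others. Timp1 ranked 4 of 10 in the EHP-101 library and 4, 5 and 4 with AJA, 5 in bleomycin and 7 in control. The middle genes, Mmp9, Mmp11, Mmp12 and Adam12, lay between 0.810 and 2.59 CPM per kb in the treated libraries, and their order changed from library to library.

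Summed over the 7 metalloproteinases, transcript levels were 70.8 CPM per kb with EHP-101, 82.4, 102 and 64.6 with AJA, 152 in bleomycin and 99.6 in control. The sum of Timp1 and Timp3 was 96.4 CPM per kb with EHP-101, 104.2, 104.4 and 98.5 with AJA, 90.1 in bleomycin and 76.0 in control. The metalloproteinase sum was therefore 0.735 times the sum of Timp1 and Timp3 with EHP-101 and 0.791, 0.978 and 0.656 times with AJA, against 1.69 in bleomycin and 1.31 in control. Each treated library was below bleomycin and control in this ratio. Timp2, which was not among the 10 genes, was at 45.1 CPM per kb with EHP-101, 54.0, 60.3 and 44.5 with AJA, 48.0 in bleomycin and 75.0 in control. Over all 4 Timp genes, the inhibitor sum was 147 CPM per kb with EHP-101, 161, 167.5 and 144 with AJA, 141.5 in bleomycin and 158 in control, so with Timp2 and Timp4 added it was lower, not higher, in bleomycin than in control. The metalloproteinase sum was 0.483 times this sum with EHP-101 and 0.512, 0.609 and 0.449 times with AJA, against 1.07 in bleomycin and 0.632 in control. Without Mmp2 and Mmp14 and set against Timp1 alone, the order of bleomycin and control turned round: the ratio was 1.105 with EHP-101 and 0.711, 1.80 and 0.533 with AJA, against 2.81 in bleomycin and 7.60 in control. All of these ratios describe RNA levels and were not tested. Timp1 made up 11.7% of the sum of Timp1 and Timp3 with EHP-101 and 18.6, 11.5 and 17.5% with AJA, 20.8% in bleomycin and 4.17% in control.

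**Figure D3:**
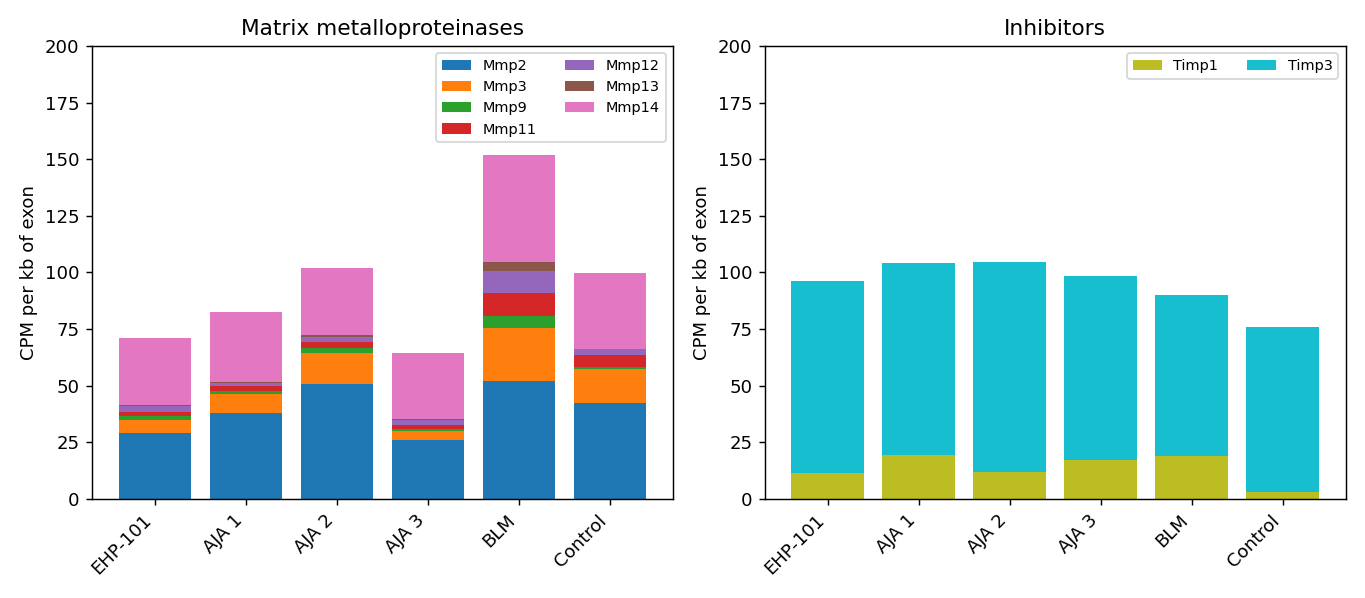
Stacked transcript levels in CPM per kilobase of exon for the 7 metalloproteinases (left) and for Timp1 and Timp3 (right), in the libraries of bleomycin with EHP-101, bleomycin with ajulemic acid (AJA), bleomycin alone (BLM) and control. Mmp2 and Mmp14 make up most of the metalloproteinase sum in each library. The sum is highest in bleomycin at 152, and the sum of Timp1 and Timp3, mostly Timp3, lies between 76.0 and 104.4.

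The stretch of chromosome 9 that holds Mmp13, Mmp12 and Mmp3 carries 10 metalloproteinase genes over 426.9 kb (7272514 to 7699416 in mm10), of which 6 passed the filter on low counts. Mmp10, stromelysin 2 of migrating keratinocytes, had 3 counts with EHP-101, 12, 4 and 5 with AJA, 30 in bleomycin and 5 in control. Mmp8, the collagenase of neutrophils, had 14 counts with EHP-101, 4, 12 and 11 with AJA, 20 in bleomycin and 8 in control. Mmp27 did not follow the order of its neighbours, with 31 counts with EHP-101, 28, 79 and 26 with AJA, 37 in bleomycin and 57 in control. Mmp1a and Mmp1b had at most 5 counts in any library. Mmp20, a protease of tooth enamel, had at most 6 counts, and Mmp7 had 0 in each library.

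**Figure D4:**
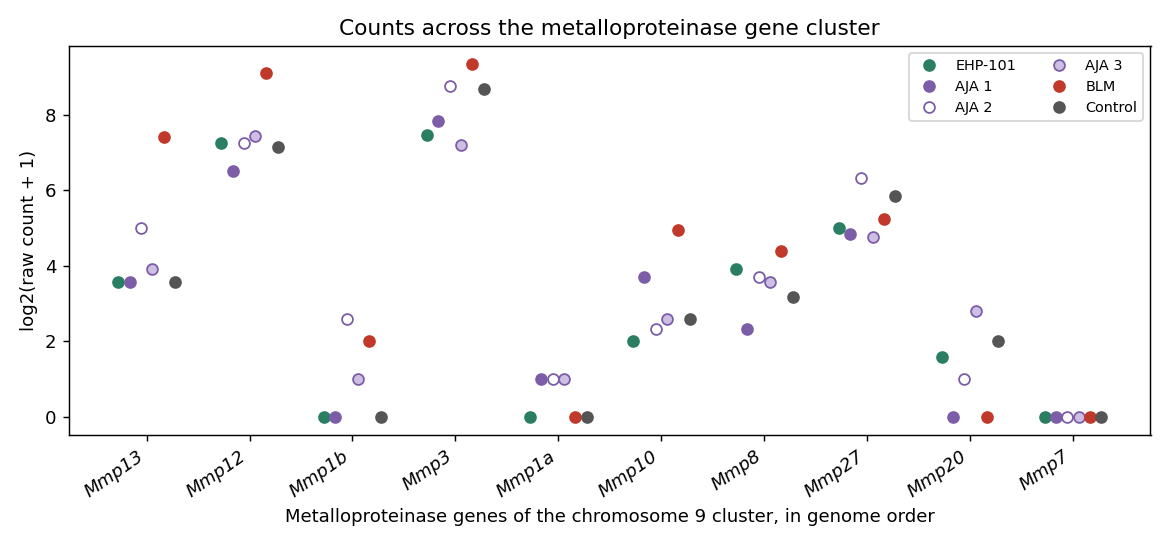
Raw counts, as log2(count + 1), of the 10 metalloproteinase genes of the chromosome 9 cluster in genome order, for the libraries of bleomycin with EHP-101, bleomycin with ajulemic acid (AJA replicates 1 to 3), bleomycin alone (BLM) and control. Bleomycin is the highest library for Mmp13, Mmp12, Mmp3, Mmp10 and Mmp8, but not for Mmp27, where AJA replicate 2 is highest with 79 counts. For Mmp8 this rests on few counts, 20 in bleomycin and 14 with EHP-101.

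Other genes of the proteolytic system were counted in lists. Over all genes tested, 49.5% were higher in bleomycin than in control. Against bleomycin, 50% were lower with EHP-101 and 47.2% with AJA. The shares at an unadjusted p under 0.05 by edgeR are those given above for each contrast. None of these listed genes passed edgeR's adjusted threshold in the contrasts of bleomycin with control or of either treatment with bleomycin. Plg, from the list of plasminogen activation, did pass it as lower in AJA against control (log2 fold change -5.88). Among the listed genes named below, DESeq2 called Adam8, Ctss, Fos and Fosb higher in bleomycin than in control. Against bleomycin it called Fosb higher with each treatment, and Plg, Col5a1 and Col1a1 lower with AJA. Of 16 further metalloproteinases 12 were tested. Against control 10 of the 12 were higher in bleomycin, 2 of them at an unadjusted p under 0.05, with a median log2 fold change of 0.56. Against bleomycin 11 of the 12 were lower with EHP-101 (median -0.42) and 10 with AJA (median -0.33), 1 at an unadjusted p under 0.05 in each. Mmp19 had 25.3 CPM with EHP-101 and 25.1 ± 0.6997 CPM with AJA, against 29.95 CPM in bleomycin and 16.2 CPM in control. Mmp17, a protease anchored to the membrane by a lipid, had 3.35 CPM with EHP-101 and 2.73 ± 0.103 CPM with AJA, against 4.11 CPM in bleomycin and 1.77 CPM in control. Both stayed between control and bleomycin in the 4 treated libraries.

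Of 8 other ADAM proteases 7 were tested, and 6 were higher in bleomycin than in control. Against bleomycin 6 were lower with EHP-101 and 6 with AJA, 2 at an unadjusted p under 0.05 in each contrast. Adam8, a protease of leukocytes, was at 23.7 CPM with EHP-101 and 21.1 ± 2.16 CPM with AJA, against 43.3 CPM in bleomycin and 11.95 CPM in control. It was the 1 gene of this list that DESeq2 called higher in bleomycin against control (adjusted p = 0.00155). Adam19 was at 25.6 CPM with EHP-101 and 28.6 ± 0.992 CPM with AJA, against 47.5 CPM in bleomycin and 29.0 CPM in control. The 18 ADAMTS proteases, which cut proteoglycans and procollagens, were divided. Against control 9 had higher and 9 lower levels in bleomycin (median -0.14), 3 lower ones at an unadjusted p under 0.05, and against bleomycin 10 were lower with EHP-101 (median -0.05) and 11 with AJA (median -0.31). Adamts15 was at 12.9 CPM with EHP-101 and 11.6 ± 2.05 CPM with AJA, against 24.95 CPM in bleomycin and 23.8 CPM in control. Adamts18 ran the other way, at 6.53 CPM with EHP-101 and 4.92 ± 1.74 CPM with AJA, against 2.63 CPM in bleomycin and 11.9 CPM in control.

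Among 6 tested genes of 8 other inhibitors, 3 had higher and 3 lower levels in bleomycin than control (median 0.07). Timp2, which also takes part in the activation of Mmp2, was at 163 CPM with EHP-101 and 192 ± 28.9 CPM with AJA, against 174 CPM in bleomycin and 272 CPM in control. Tfpi2, a serine protease inhibitor of the matrix, was at 1.34 CPM with EHP-101 and 1.46 ± 0.309 CPM with AJA, against 4.11 CPM in bleomycin and 2.101 CPM in control. Among 10 tested genes of 12 other matrix-degrading proteases, 3 had higher and 7 lower levels in bleomycin than control (median -0.07). Ctss, cathepsin S of antigen-presenting cells, was at 109.5 CPM with EHP-101 and 124 ± 25.2 CPM with AJA, against 147.5 CPM in bleomycin and 52.9 CPM in control. Fap, the fibroblast activation protein, was at 14.8 CPM with EHP-101 and 15.7 ± 2.80 CPM with AJA, against 12.4 CPM in bleomycin and 30.8 CPM in control.

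All 8 genes of plasminogen activation, the serine protease system that can activate metalloproteinase precursors, were tested, and 5 were higher in bleomycin than in control (median 0.45). Against bleomycin all 8 were lower with EHP-101 (median -0.30), 0 at an unadjusted p under 0.05, and all 8 with AJA (median -0.34), 3 at that level. Plg, the precursor of plasmin made by the liver, had 139 counts with EHP-101, 6, 6 and 4 with AJA, 169 in bleomycin and 285 in control. The 12 hepatocyte markers were lowest in the same libraries, and their summed level was 697 CPM with EHP-101, 31.0 to 132 CPM with AJA, 780 CPM in bleomycin and 1080 CPM in control. Their part in the Plg values was not tested.

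Among 15 matrix substrates of these enzymes, 7 had higher and 8 lower levels in bleomycin than control (median -0.06), 9 were lower with EHP-101 than in bleomycin (median -0.12) and 8 with AJA (median -0.18), 4 at an unadjusted p under 0.05 in each of the treatment contrasts. Col5a1 was at 177 CPM with EHP-101 and 159 ± 8.84 CPM with AJA, against 303 CPM in bleomycin and 231 CPM in control. Col1a1, the main collagen of dermis, was at 902 CPM with EHP-101 and 816 ± 111 CPM with AJA, against 1683 CPM in bleomycin and 1663 CPM in control. Of 19 tested genes for cytokines and transcription factors that induce metalloproteinases (of 20 listed), 18 were higher in bleomycin than in control (median 0.34). Against bleomycin 8 were higher with EHP-101 and 12 with AJA. Fosb, a subunit of AP-1, was at 72.5 CPM with EHP-101 and 47.0, 40.7 and 60.4 CPM with AJA, against 19.8 CPM in bleomycin and 3.68 CPM in control. Fos was at 213 CPM with EHP-101 and 186 ± 50.1 CPM with AJA, against 83.8 CPM in bleomycin and 18.8 CPM in control.

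Markers of cell types that make these enzymes were summed per library. In bulk skin, fewer cells of a type and less RNA per cell cannot be told apart. The 14 macrophage markers summed to 884 CPM with EHP-101, 1003 to 1186 CPM with AJA, 1088 CPM in bleomycin and 960 CPM in control, with counts for all 14 in each library, and their part in the Mmp12 values was not tested. The 10 neutrophil markers summed to 17.3 CPM with EHP-101, 22.9, 29.6 and 19.4 CPM with AJA, 38.8 CPM in bleomycin and 13.7 CPM in control, and the defining marker Ly6g was at 0 in all 6 libraries and Ltf in the 3 AJA libraries. Mmp9 was likewise highest in bleomycin and, among the AJA libraries, highest in replicate 2, and the part of neutrophils in this was not tested. The 10 fibroblast markers summed to 992 CPM with EHP-101, 1034, 1575 and 850.5 CPM with AJA, 1188 CPM in bleomycin and 1569 CPM in control. Within the AJA group they were ordered like Mmp2 and Mmp3, with replicate 2 highest and replicate 3 lowest, and their part in those genes was not tested. The 11 keratinocyte markers, all with counts in each library, summed to 13700 CPM with EHP-101 and 19550, 17630 and 14340 CPM with AJA. Their sum was 18890 CPM in bleomycin and 12840 CPM in control. All 11 were higher in bleomycin than in control (median 0.61), where 49.5% of all genes were. Against bleomycin 11 were lower with EHP-101 (median -0.59) and 10 with AJA (median -0.19), where 50% and 47.2% of all genes were. The part of keratinocytes in the values of the 10 genes was not tested. The 8 osteoclast markers summed to between 69.6 and 122 CPM, the 10 markers of cartilage and bone to between 22.6 and 27.8 CPM, the 8 mast cell markers to between 71.7 and 152 CPM and the 10 endothelial markers to between 175.5 and 302 CPM.

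Marker levels of other skin components also differed among the libraries. The 12 markers of growing hair follicles summed to 10520 CPM with EHP-101, 11130, 527 and 26190 CPM with AJA, 1063 CPM in bleomycin and 12040 CPM in control, so AJA replicate 2 and bleomycin were both low. In that AJA library Mmp12 was at 24.9% of its bleomycin level, Mmp11 at 23.3%, Adam12 at 24.1% and Mmp13 at 16.5%, Mmp3 at 59.3% and Mmp2 at 97.4%. The 10 skeletal muscle markers summed to 5397 CPM with EHP-101, 3630, 5149 and 2715 CPM with AJA, 5867 CPM in bleomycin and 2188 CPM in control. The 10 white adipocyte markers summed to 1577 CPM with EHP-101, 1165, 1223 and 869 CPM with AJA, 954.5 CPM in bleomycin and 2289 CPM in control. The part of hair follicle, muscle and fat in the values of the 10 genes was not tested.

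For 4 of the genes the most alike patterns of log2 CPM over the 6 libraries were sought among 12755 genes. Every correlation here is over the same 6 libraries, which differed in tissue markers and were scaled together, and is a description only. It compares the shape of a pattern and not the size of the changes. Nearest to Mmp12 were Aatk (r = 0.984), 3110082I17Rik (r = 0.971) and S100a8 (r = 0.971). S100a8, a calcium-binding protein of neutrophils and activated keratinocytes, was at 3.84 CPM with EHP-101, 3.68 to 4.34 CPM with AJA, 6.80 CPM in bleomycin and 4.14 CPM in control. Nearest to Mmp13 were Stfa3 (r = 0.988), Ccdc181 (r = 0.987) and Crabp1 (r = 0.985). Stfa3, a cystatin-type inhibitor of cathepsins with close copies, was at 2.13 CPM with EHP-101, 3.82, 9.11 and 2.24 CPM with AJA, 58.2 CPM in bleomycin and 2.495 CPM in control, so AJA replicate 2 was the highest treated library in it, as in Mmp13. Nearest to Adam12 were Spon1 (r = 0.982), Ankzf1 (r = 0.977) and Nol4l (r = 0.975). Ankzf1 varied little, from 18.2 CPM in AJA replicate 2 to 22.1 CPM in bleomycin, where Adam12 went from 8.65 to 35.9 CPM. Spon1 varied more, from 45.2 to 94.0 CPM in the same 2 libraries. Nearest to Timp1 were Atp6ap1 (r = 0.986), the hyaluronan receptor Cd44 (r = 0.986) and the cholesterol exporter Abcg1 (r = 0.982). Atp6ap1 varied little, from 108.4 CPM in control to 125.1 CPM in bleomycin. Cd44 was at 314 CPM with EHP-101, 353, 308 and 355.5 CPM with AJA, 334 CPM in bleomycin and 223.5 CPM in control.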

How the data were processed

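Total RNA from 6 skin libraries was used, 300 ng each for ribosome-depleted stranded libraries read as single ends of 50 bp, per the labels' protocols. The authors deposited raw counts per gene, from featureCounts per the series description. Trimmomatic 0.36, HISAT2 2.1.0, featureCounts 1.6.1, DESeq2 1.20.0 and mm10 are named in the submitters' processing notes. The sources used here name no strand or multi-match setting. Timp1 lies within the span of Syn1 and Timp3 within that of Syn3, both on the opposite strand, and Adam12 shares its span with another gene on its own strand, with no exon overlap. The 2 deposited tables held the same counts for these libraries (0 differing values), and 6 other sample columns of the merged table, named as replicates 1 and 2 of EHP-101, bleomycin and control, were not used, because the series description assigns them to another deposit and they match no sample given here. Symbols were found for 25275 of 27179 gene numbers in RefSeq's GRCm38.p6 table.

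Counts were tested with edgeR 4.0.16 in R 4.3.3 (filterByExpr with a minimum count of 10, TMM, robust quasi-likelihood F-tests, two-sided, Benjamini-Hochberg adjustment over 17377 genes, threshold 0.05) in 1 fit of 4 groups with 2 residual degrees of freedom, for 6 comparisons. An SE is the log2 fold change divided by the square root of its F. Scripts were tested on simulated counts. The alternatives were DESeq2 1.42.0, limma-trend 3.58.1, 2 other scalings, no filter, no robust option, library sizes without mitochondrial ribosomal RNA, and leaving out each AJA library. Likeness was Pearson's r of log2 CPM (prior count 3) among genes with a mean of at least 2.

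The members and lists were chosen with earlier results of these data known. The naming rule took all 10 members, the 2 genes of smallest unadjusted p from each of 8 other lists (1 gene that the rule named is not reported here), and the 3 genes most alike in pattern to Mmp12, Mmp13, Adam12 and Timp1. Mmp10, Mmp8, Mmp27, Mmp1a, Mmp1b, Mmp20 and Mmp7 are named for their place in the chromosome 9 cluster.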

Additional observations from a re-analysis of the deposited data

How the results depend on the processing

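The number of genes called over all genes tested depended strongly on the method. Against the 0 genes that edgeR called in bleomycin against control, DESeq2 called 164, and leaving out each AJA library in turn gave 0 to 179 (8 without replicate 2 and 179 without replicate 3). In EHP-101 against bleomycin DESeq2 called 10, and leaving out a library gave 0 to 0. In AJA against bleomycin DESeq2 called 104, edgeR without a filter 41, and leaving out a library 0 to 92 (69 without replicate 2 and 92 without replicate 3). In EHP-101 against AJA the counts were 67 by DESeq2, 16 without a filter and 0 to 67 without a library. In EHP-101 against control they were 121 by DESeq2 and 0 to 91 without a library. In AJA against control edgeR called 6, DESeq2 271, limma 0, edgeR without a filter 153, and 0 to 368 without a library. The medians of the 10 genes moved by less than 1 SD between AJA libraries under each alternative run.

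Of 600 values of the 10 genes under the alternatives, 569 kept direction and side of the threshold, 20 were newly called and 11 changed sign. The cause of these changes was not tested. In EHP-101 against AJA, Mmp14 was 0.01 and Timp3 0.02 with upper-quartile scaling, and without a library Mmp11 ranged from -0.27 to 0.01, Timp3 up to 0.06, Tfpi2 from -0.26 to 0.05 and Fap from -0.15 to 0.07. In EHP-101 against control, Mmp12 was -0.01 with DESeq2 and with RLE, -0.0002 with library sizes without mitochondrial ribosomal RNA, and -0.03 to 0.001 without a library. In AJA against control, leaving out a library gave -0.12 to 0.68 for Mmp9, -0.06 to 0.82 for Mmp13, -0.46 to 0.07 for Mmp2 and -0.10 to 0.0005 for Adam19. Col1a1 in bleomycin against control was -0.05 without replicate 2. No paired analysis was possible because the libraries analysed here share only the replicate number 3 across groups. The 3 groups of 1 library were given no replicate check, since the columns assigned to another deposit were not used, and Mmp13, with 11 counts in control, is limited by depth.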
